A study of Rattus norvegicus with 12 samples.

Results

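Coronary arterioles of old rats injected with cells of the stromal vascular fraction (SVF) of adipose tissue were compared with those of old rats left untreated, in 8 of the 12 RNA-seq libraries of the series. The 8 libraries were chosen by their labels alone: 4 are old control and 4 are old SVF-treated. All the animals were female Fischer-344 rats aged 24 months. The treated rats were given 10000000 SVF cells in 1 tail vein injection at 23 months, and their vessels were taken 4 weeks later. The control rats had no treatment, and the labels name no injection of vehicle, so the cells and the injection itself cannot be told apart. The remaining 4 libraries come from untreated young control rats aged 3 months. They entered the fit through the shared spread, scaling and filter, and are otherwise given only beside single values. RNA was pooled from vessels within a group before each library was made, so p-values measure the spread between these RNA samples, which may be partly technical.

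Coronary arterioles are the small arteries of the heart wall that set the resistance to coronary flow. Their smooth muscle relaxes to nitric oxide from the endothelium and to cyclic AMP made after stimulation of beta-adrenergic receptors, and this dilation is known to weaken with age. SVF is the mixed cell preparation left when fat tissue is digested and the adipocytes are removed. It holds stromal and progenitor cells, endothelial cells, pericytes and immune cells, and it is studied as a source of growth factors for blood vessels. The study set out to follow the beta-adrenergic signalling cascade, receptor handling and oxidative stress.

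Genes appear here under Ensembl IDs, since the count table does not pair them with symbols and 0 of its 24600 IDs matched the RefSeq gene table used. Neither the labelled tissue nor the genes of the beta-adrenergic cascade could therefore be examined by name, and what follows is described by level, fold change and library. Only 4 IDs are printed, and other genes are given in groups.

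The old libraries held 6428823 to 10821485 counts. Total counts averaged 7967580 ± 898508 (SD, n = 4) in old control libraries and 8058300 ± 1936880 (SD, n = 4) in SVF-treated libraries. The groups did not differ detectably (exact permutation test over 70 relabelings, 2-sided, p = 0.943, smallest possible p = 0.0286). The number of tested genes without any count varied within each group far more than between them. It was 78, 532, 191 and 725 in old control replicates 1 to 4, and 129, 820, 313 and 568 in SVF-treated replicates 1 to 4 (exact permutation test of the means, 2-sided, p = 0.686). SVF-treated replicate 2 and old control replicate 4, with the most such genes in their groups, also had the lowest median rank correlations with the other old libraries in their groups, 0.939 and 0.945. In the other 6 libraries this correlation was 0.948 to 0.961.

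No gene was called as changed 4 weeks after SVF cells, and for most genes at moderate or high level a 2-fold change in either direction lay outside the 95% interval. Of 12496 tested genes, 0 (0%) had an adjusted p under 0.05 by edgeR's quasi-likelihood test with Benjamini-Hochberg adjustment. DESeq2 and limma voom with sample quality weights also called 0. At an unadjusted p under 0.05, edgeR had 367 genes (2.94%), DESeq2 496 (3.08%) and limma voom 577 (4.62%). Of the 367, 181 were higher (1.45%) and 186 lower (1.49%) in SVF-treated rats. This split moved with single libraries: it was 178 higher and 290 lower without SVF-treated replicate 1, 170 and 265 without old control replicate 2, and 276 and 218 without old control replicate 1. By limma voom it was 326 higher and 251 lower. Without SVF-treated replicate 2 the edgeR number was 562, and still 0 genes were called.

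The median of the fold changes was -0.0033 on the log2 scale for SVF-treated minus control. It lies near 0 because TMM scaling centres the libraries on each other, and it is no result. The lower and upper quartiles were -0.19 and 0.19, and the 5th and 95th percentiles were -0.68 and 0.75. A fitted change of at least 2-fold was seen in 378 genes upward and 286 downward. These were nearly all genes of low level: 524 of the 664 had a mean of at most 4 CPM (a gene's counts relative to the library total, with TMM scaling) over the 8 old libraries, and 654 had at most 16 CPM.

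**Figure D1:**
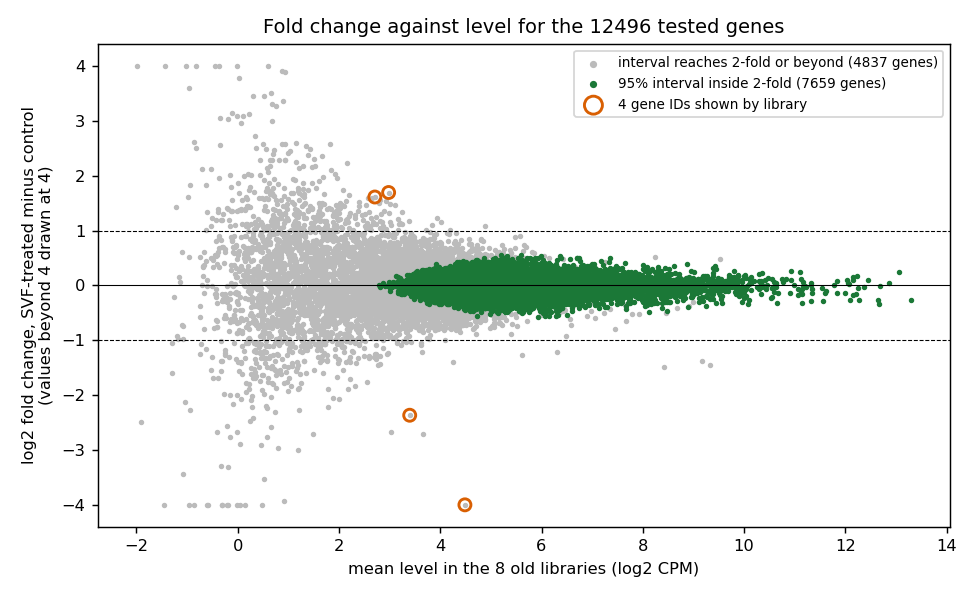
Each point is 1 of 12496 tested genes, with its mean level in the 8 old libraries (log2 CPM) on the horizontal axis and its log2 fold change, SVF-treated minus control, on the vertical axis; dashed lines mark 2-fold. Green points are the 7659 genes whose 95% interval lies inside 2-fold, and circles mark the 4 IDs described by library; the spread narrows as the level rises.

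The intervals show which changes these libraries could place. The 95% interval lay wholly inside 2-fold in 7659 genes (61.3%) and wholly inside 1.5-fold in 3682 (29.5%). The share depended on the level of the gene. Of the 1845 genes at up to 4 CPM, 0 had an interval inside 2-fold. Between 4 and 16 CPM it was 581 of 3004 genes (19.3%), between 16 and 64 CPM 4037 of 4569 (88.4%), and above 64 CPM 3041 of 3078 (98.8%). From 1 to 4 CPM the median half-width of the interval was 2.61 on the log2 scale, so that most of these genes could not be placed within 4-fold of the controls. Above 64 CPM it was 0.34.

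**Figure D2:**
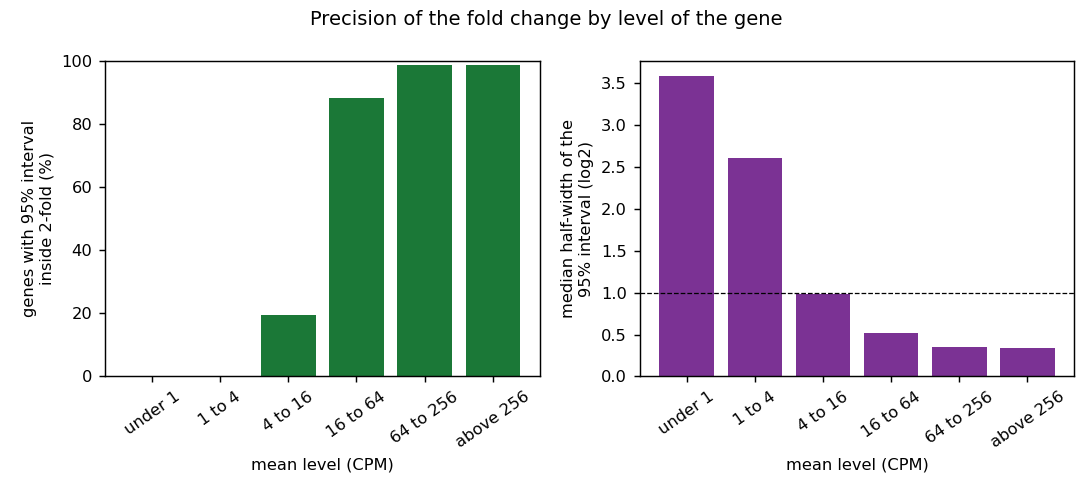
Bars group the tested genes by mean level over the 8 old libraries (CPM). The left panel gives the percentage of genes whose 95% interval of the log2 fold change lies inside 2-fold, and the right panel the median half-width of that interval (log2), with 2-fold dashed; the percentage rises from 0 at up to 4 CPM to 98.8% at 64 to 256 CPM.

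The most abundant transcripts of the arterioles had intervals inside 2-fold. The 100 genes of highest mean level spanned 1001 to 10127 CPM. Their log2 fold changes ran from -0.35 to 0.25 with a median size of 0.09, and all 100 had intervals inside 2-fold, 70 of them inside 1.5-fold. In 0 of the 100 did the libraries of the groups separate, and 0 had an unadjusted edgeR p under 0.05. Among these, the 10 most abundant genes had a larger median size of log2 fold change, 0.17, with a range of -0.35 to 0.24, and 2 of the 10 had intervals inside 1.5-fold. These 10 genes took 6.78% ± 0.716 of the counts in old control libraries and 6.50% ± 0.782 in SVF-treated libraries (SD, n = 4, exact permutation test, 2-sided, p = 0.686).

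The old libraries did not sort by treatment. The distance between libraries was measured as the root mean square difference per gene in log2 CPM. It averaged 1.02 between old controls (6 pairs, 0.760 to 1.23), 1.11 between SVF-treated libraries (6 pairs, 0.836 to 1.31) and 1.05 across the groups (16 pairs, 0.731 to 1.33). Over all tested genes, the closest pair of all 28 joined the groups: old control replicate 1 and SVF-treated replicate 1. This depended on the genes used. Above 64 CPM the closest pair lay within the old controls, at 0.279, against 0.283 for the closest pair across the groups. The mean distance across groups minus that within groups was -0.0145 (exact permutation test over 70 relabelings, one-sided for a larger distance across groups, p = 0.971, smallest possible p = 0.0286). Among genes above 64 CPM the same difference was -0.0116 (exact permutation test, one-sided, p = 0.829). Without SVF-treated replicate 2 and old control replicate 4 it was -0.0134.

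**Figure D3:**
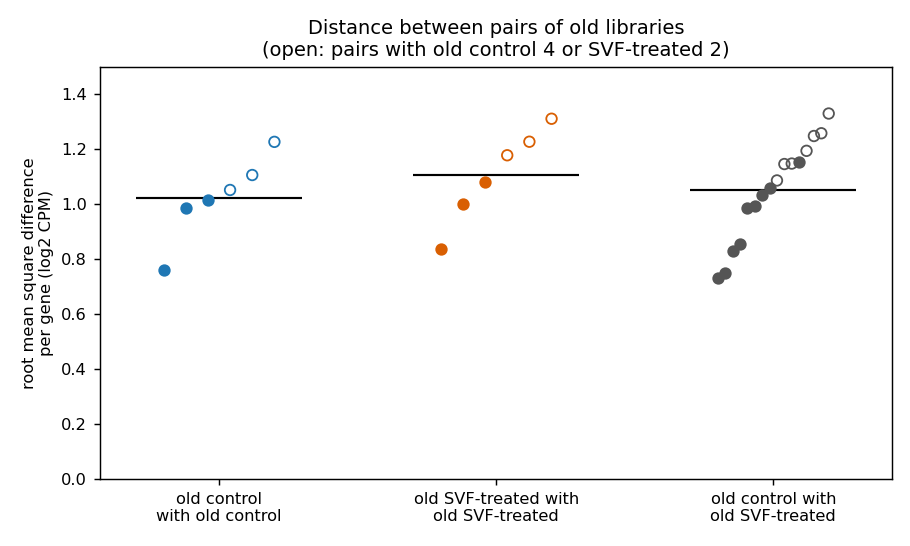
Each point is a pair of the 8 old libraries, and its height is the root mean square difference per gene (log2 CPM); lines are means and open points are pairs that hold old control replicate 4 or SVF-treated replicate 2. Pairs across the groups, at 0.731 to 1.33, cover the same range as pairs within them.

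The spread between libraries of 1 group is given as a description, with no test. The median SD of log2 CPM over genes was 0.374 in old controls and 0.379 in SVF-treated libraries, and the SD was higher in SVF-treated libraries for 51.6% of genes. Above 64 CPM the medians were 0.221 and 0.206.

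Some genes had all 4 SVF-treated libraries on one side of all 4 controls. There were 302 of them (2.42% of tested genes), 159 higher (1.27%) and 143 lower (1.14%) in SVF-treated rats. A random labelling of the 8 old libraries would separate the groups of a gene in 2 of 70 relabelings, a share of 0.0286. The share seen is not above this. Of the 12496 tested genes, 61 of the higher and 62 of the lower also had a mean of at least 5 CPM and an unadjusted p under 0.05. The 61 had log2 fold changes of 0.31 to 1.69 with a median of 0.73, and the 62 had a median of -0.56. The 2 largest differences in each direction among these 123 genes are described below. They were picked by this contrast, so their separation and their size are descriptions. None of the 4 passed the correction over all genes.

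ENSRNOG00000015160 had the largest rise among these genes. Old control replicates 1 to 4 were at 6.36, 5.36, 3.00 and 0.222 CPM, and SVF-treated replicates 1 to 4 at 9.46, 13.1, 11.8 and 13.9 CPM. The SVF-treated libraries were close to each other, while the controls ranged widely, with replicate 4 holding only 2 counts. The means were 3.74 ± 2.73 and 12.05 ± 1.94 CPM (SD, n = 4). The fitted log2 fold change was 1.69, with an SE of 0.62 and a 95% interval from 0.41 to 2.98 (edgeR adjusted p = 0.999). The young controls, at 3.76 to 9.91 CPM, overlapped both old groups. Without old control replicate 4 the log2 fold change was 1.29.

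ENSRNOG00000058436 was at 4.15, 4.17, 3.00 and 1.55 CPM in old control replicates 1 to 4. In SVF-treated replicates 2 to 4 it stood at 11.6, 11.5 and 11.7 CPM, but in replicate 1 at 4.64 CPM, just above the highest control. The separation of the groups therefore rests on a narrow margin in that library. On 14 to 91 counts per library, the log2 fold change was 1.61, with an SE of 0.55 and a 95% interval from 0.47 to 2.75 (edgeR adjusted p = 0.999). Young controls lay at 3.35 to 7.71 CPM.

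ENSRNOG00000019183 was counted in every old control and in no SVF-treated library. The counts were 1344, 10, 15 and 16 in old control replicates 1 to 4, and 0 in each SVF-treated library. Old control replicate 1, at 174 CPM, stood far above the other controls at 1.49 to 1.80 CPM. Against the limit that a count of 0 allows over the 4 SVF-treated libraries (3 counts, or 0.0918 CPM), the control mean of 44.8 ± 86.3 CPM (SD, n = 4) was at least 489-fold higher. Without old control replicate 1 the control mean was 1.69 ± 0.172 CPM (SD, n = 3), at least 18.4-fold higher. These limits cover counting error only and take the control mean as exact. The fitted log2 fold change was -11.4, with an SE of 3.64 and a 95% interval from -20.2 to -2.61 (edgeR adjusted p = 0.999). Without old control replicate 1 it was -6.67 (95% interval -11.8 to -1.54). Both intervals reach smaller changes than the limits from counting error. The gene was low in young controls as well, with counts of 1, 11, 0 and 1.

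ENSRNOG00000061299 was at 45.0, 8.64, 8.04 and 8.87 CPM in old control replicates 1 to 4, and at 3.66, 7.06, 2.98 and 0 CPM in SVF-treated replicates 1 to 4. Old control replicate 1 was again the library far above the rest. The log2 fold change was -2.37, with an SE of 0.75 and a 95% interval from -3.94 to -0.79 (edgeR adjusted p = 0.999). Without old control replicate 1 it was -1.31 (95% interval -3.02 to 0.39). The young controls, at 4.42 to 7.52 CPM, lay below all 4 old controls and overlapped the SVF-treated libraries.

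**Figure D4:**
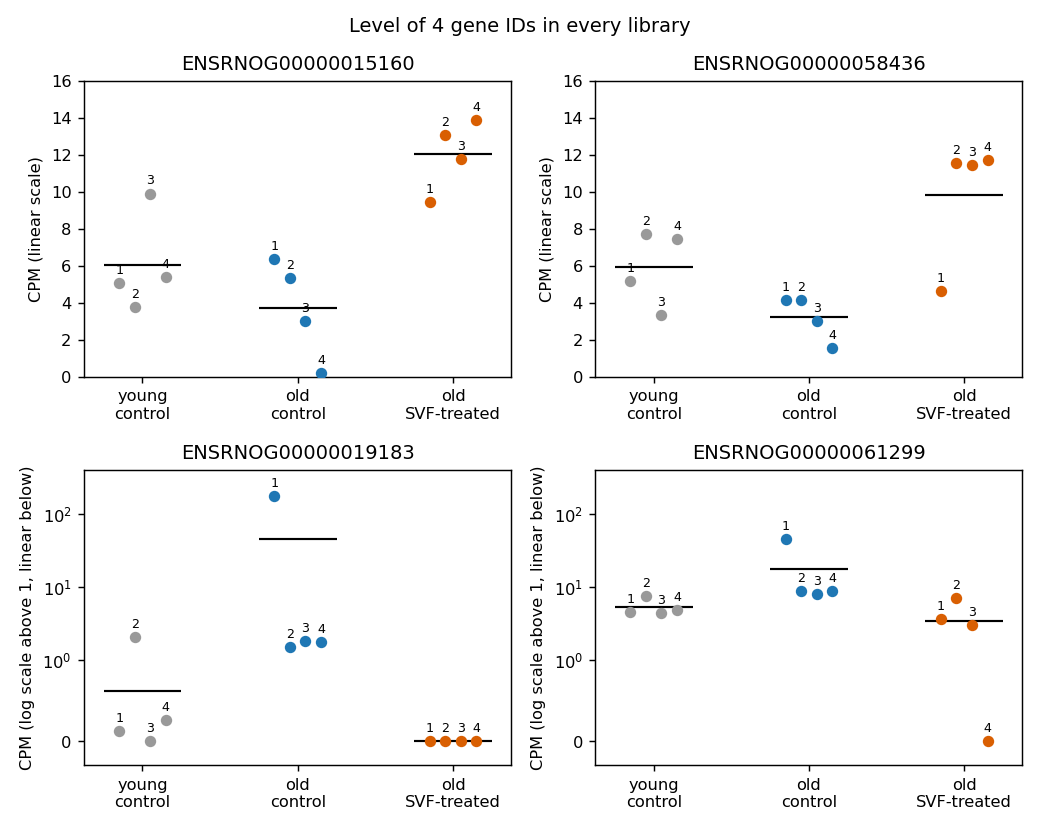
CPM of the 4 IDs in each library, with replicate numbers beside the points and lines at the group means; the upper panels have a linear axis and the lower panels an axis that is logarithmic above 1 CPM and linear below. In both lower panels old control replicate 1, at 174 and 45.0 CPM, stands above every other library.

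The 3 IDs with counts in SVF-treated libraries were also set beside the young controls in the same fit. SVF-treated minus young gave log2 fold changes of 0.99 (95% interval -0.27 to 2.25) for ENSRNOG00000015160, 0.74 (-0.38 to 1.86) for ENSRNOG00000058436 and -0.64 (-2.19 to 0.92) for ENSRNOG00000061299. Old control minus young gave -0.70 (-1.98 to 0.58), -0.87 (-2.01 to 0.27) and 1.73 (0.19 to 3.27). None of these 6 values passed the correction (edgeR adjusted p = 0.794 to 1.0). Both contrasts use the young libraries, and the contrast that picked the IDs uses the same old libraries, so the values are given side by side only. The interval above 0, for ENSRNOG00000061299, includes old control replicate 1 at 45.0 CPM. The old control mean of this gene was 17.6 CPM with that library and 8.52 CPM without it, against 5.32 CPM in young controls. The fit against young controls was not repeated without that library.

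Above 64 CPM, 4 of 3078 genes had a fitted change of at least 2-fold, and all 4 were lower in SVF-treated rats. Of these, 3 had a mean above 256 CPM and were examined by library after their values were seen. In old control replicate 1 they were at 2120, 1245 and 1981 CPM. In the other 3 controls they lay at 379 to 863, 202 to 368 and 255 to 747 CPM, and in SVF-treated libraries at 155 to 461, 81.5 to 245 and 183 to 394 CPM. Old control replicate 1 was the highest library, old control replicate 2 the next and SVF-treated replicate 3 the lowest for each of the 3, and the groups overlapped. Their log2 fold changes of -1.46, -1.49 and -1.38 (edgeR adjusted p = 0.999) became -0.69, -0.54 and -0.51 without old control replicate 1, with intervals that all included 0. Whether these genes are close copies, and how their reads were then assigned, was not tested.

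A few genes were present in all libraries of one group and absent from the other. Of all 24600 gene IDs, tested or not, 9 were in every old control but no SVF-treated library, ENSRNOG00000019183 among them. In the opposite direction there was 1 gene. Most had low counts: outside ENSRNOG00000019183 the highest count of the 9 in any control was 41, and 3 of the 9 passed the filter on low counts. Their mean level in controls ran from 0.220 to 44.8 CPM with a median of 1.57 CPM, against a limit of 0.268 to 0.450 CPM that a count of 0 allows in single SVF-treated libraries. Of the 9, 2 were absent from all young controls, 1 was present in all of them and 6 were present in some. The same count in the other pairs of groups was 5 genes in every young but no old control, 9 in every old but no young control, 15 in every young control but no SVF-treated library and 4 in the opposite direction. All these numbers are out of the same 24600 IDs, and no test was made on them. These pairs share libraries, and the number of genes at 0 differed widely between single libraries, as given above.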

How the data were processed

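For 12 libraries of polyadenylated RNA from coronary arterioles, the authors deposited a table of raw read counts by gene. Per the submitters' processing notes, the tools were FastQC 0.10.1 and HTSeq 0.10.0 and the build rn6. The aligner, annotation release and strand setting are not given in the sources used here. How reads of overlapping, antisense and near-identical genes were assigned or dropped is therefore not known. All rows were gene IDs.

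From these counts, edgeR 4.0.16 in R 4.3.3 was run on all 12 libraries with group as the only term: filterByExpr (minimum count 10, minimum total 15; 12496 genes with 99.9% of counts kept), TMM, and robust quasi-likelihood F tests, adjusted by Benjamini-Hochberg over all tested genes. Calls were made at an adjusted p under 0.05. Intervals are at 95%. Log2 CPM used a prior count of 2. The fit was tested on simulated data. The simulation held no outlying libraries, and its outcome is not reported here. Total counts of the old libraries were 6428823 to 10821485, and the common biological coefficient of variation was 37.9%. Distances, genes at 0 and total counts were compared by exact permutation of the 8 old libraries.

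Alternatives were DESeq2 1.42.0, limma 3.58.1 voom, RLE factors, no filter, only the old libraries, the replicate number as a block, and leaving out libraries. The gene rule was: a mean of at least 5 CPM, unadjusted p under 0.05 and no overlap of the groups, and of these the 2 largest fold changes in each direction. The comparison, the rule and the gene lists were chosen with earlier results of these data known. The lists, which cover pathways and cell type markers, need symbols and were not used. No sequence is shown for the same reason.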

Additional observations from a re-analysis of the deposited data

Results flagged for a closer look

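In 22 groups of 4 values, a highest or lowest library was compared with Dixon's 95% limit of 0.829, the gap to the nearest library as a share of the whole range. About 1 in 20 such groups passes by chance if the values are normally distributed, which CPM of low-count genes need not be. The SVF-treated libraries of ENSRNOG00000019183, all at 0, could not pass. The number that passed here was 5, and it is not set against a chance number. ENSRNOG00000019183 was at 174 CPM in old control replicate 1, against 1.49 to 1.80 CPM in the other old controls (share 0.998). ENSRNOG00000061299 was at 45.0 CPM in the same library, against 8.04 to 8.87 CPM (0.978). ENSRNOG00000058436 was at 4.64 CPM in SVF-treated replicate 1, against 11.5 to 11.7 CPM (0.965). Young control replicate 2 was high for ENSRNOG00000019183, at 2.07 CPM against 0 to 0.256 CPM (0.876), and for ENSRNOG00000061299, at 7.52 CPM against 4.42 to 4.87 CPM (0.856). The IDs were picked for their differences between the old groups, and the part of that choice in the number that passed was not tested.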

How the results depend on the processing

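Under all 15 alternatives tried, 0 genes were called, with a smallest adjusted p of 0.157 by DESeq2 and of 0.735 or more in the others. The number of genes at an unadjusted p under 0.05 was 367. It became 577 by limma voom and 762 with no filter on low counts, where 16137 genes were tested. Leaving out each old library in turn gave 312 to 562, the highest without SVF-treated replicate 2. The number of genes with an interval inside 2-fold was 7659, and ranged from 6984 to 7344 when each old library was left out and from 7117 to 7974 under the other settings. The settings tested different numbers of genes. As a share of these it was 61.3% in the main fit and 54.8% to 57.6% when each old library was left out. It was 47.5% by DESeq2 and with no filter, and 56.4% to 63.8% in the rest. The 4 IDs passed in none of the settings that tested them. Their direction was the same in all of these. They were picked for groups that do not overlap, so leaving out libraries could hardly reverse it and it is no support. DESeq2 gave no p for ENSRNOG00000019183. With the replicate number as a block, 0 genes were called, 378 had an unadjusted p under 0.05 and 7516 had an interval inside 2-fold. Libraries of the old groups with the same number had correlations of -0.0046 to 0.0903 in their deviations from the group means. Those with different numbers had -0.0955 to 0.0956. No pairing by number was seen, but these few values cannot exclude one. Medians of gene lists were not run, because no list could be matched. Of genes at up to 4 CPM, 0 had an interval inside 2-fold, and the parts of counting depth and of the spread between libraries in this were not tested.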

Other observations

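Single libraries stood apart in a few genes, counted after the data were seen. For scale, 12496 genes were tested, and 7647 of them had a mean above 16 CPM over the 8 old libraries. A level above 16 CPM and more than 4 times that of every other old library was found for 5 genes in old control replicate 1, 1 gene in old control replicate 2 and 0 genes in the other 6 libraries. A level below the lowest of all other old libraries by more than 4 times, in genes with a mean above 16 CPM, was found for 8 genes in SVF-treated replicate 2, 5 genes in old control replicate 4 and 0 in the other 6. These last 2 libraries also held the most tested genes at 0, 820 and 725.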
